A study of Mus musculus with 12 samples.

Results

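The cytochrome P450 genes were taken here as every gene on the array whose printed probe name begins with Cyp and a digit, with the sterol demethylase Cyp51 left out. The members were chosen by that name alone, so no measured value entered the rule, but the family was picked out with earlier results of these arrays in view and the counts given for it are descriptive. The rule found 95 genes of 30139 genes or transcripts on the array, measured by 120 probes, and 4 of the 95 are named as pseudogenes. Names are those of the array. Cyp2c44, Cyp4a29-ps and Cyp4a30b-ps now carry the symbols Cyp2c23, Cyp4a29 and Cyp4a30b.

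The arrays measured Cy3-labelled RNA from the colorectum of female C57BL/6N mice aged 14 weeks on a standard chow diet. Wild-type mice gave normal tissue (4 arrays, mice 102, 104, 105 and 108). Mice heterozygous for the truncating allele Apc Δ716 (Apc+/Δ716), which develop intestinal polyps, gave normal tissue and polyps (4 arrays each, mice 103, 106, 107 and 110). No group received a drug or other treatment. The tissue was not separated into cell types, so fewer cells of a type and less RNA per cell cannot be told apart in any value below. Wild-type arrays were all on slide 1 and Apc arrays on slides 2 and 3, so slide and genotype cannot be told apart, whereas each of slides 2 and 3 held both tissues of 2 mice. On both of these slides normal tissue lay at positions 1 and 3 and polyps at positions 2 and 4. Position on the slide and tissue therefore cannot be told apart in polyps against Apc normal tissue. A level is the log2 signal of the gene's brightest probe minus the 75th percentile of its array, and a difference is between the means of such levels. Between 64.6% and 73.8% of the spots on an array were well above background by the scanner software, and no spot was saturated. As the number of arrays is 4 per group, small differences were not detectable.

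P450 enzymes are haem proteins that insert an oxygen atom into lipids, steroids, vitamins, drugs and plant compounds, drawing electrons from a reductase. Families 1 to 4 act mainly on foreign compounds, arachidonic acid and other fatty acids. The other families make or break down bile acids, steroid hormones, vitamin D and retinoic acid. In the gut they are known chiefly from the absorptive epithelium, which meets dietary compounds first.

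Of the 95 genes, 60 had a probe that the scanner software called well above background throughout some group (4 of 4 arrays) and were tested, and 50 of these were above it on all 12 arrays. A further 11 genes reached it on at least 1 array and 24 on none. The 24 included Cyp1a1, the classic target of the dioxin receptor, Cyp24a1, which inactivates vitamin D, the bile acid enzymes Cyp7a1 and Cyp8b1, and the adrenal enzymes Cyp11b1 and Cyp11b2. Of the 60, 3 were tested only because polyps showed them, and 6 were not above background on all 4 polyp arrays. The 60 are therefore not the whole family, and this filter favoured a rise in polyps for genes of the first kind and a fall for those of the second.

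In polyps against normal tissue of the Apc mice, 33 of the 60 tested genes fell, 3 rose and 24 did not pass the test (adjusted p under 0.05). Over all 20082 genes tested, 24.9% were called lower and 20.5% higher. The median difference of the 60 genes was −1.16, against −0.06 over all genes. Of the 33, 4 had been tested only through normal tissue (Cyp2c39, Cyp2c54, Cyp2d13 and Cyp4b1), and of the 3, 2 only through polyps (Cyp2b10 and Cyp2b9), so the values of these 6 genes against polyps are given below without a p-value. All 33 genes called lower were lower in each of the 4 mice, and the 3 called higher were higher in each. The arrays of the tissues did not overlap for these genes, so the agreement by mouse follows from that and is no separate evidence. Both counts include those 6 genes, and the share over all genes is not given here. Of these 33 genes, 19 fell by over 8-fold, and the share over all genes is not given here. With another background correction and quantile normalization some of these falls were smaller than 8-fold, such as −2.80 for Cyp2d22 and −2.02 for Cyp2d13. The 33 came from 6 chromosomes, with 10 on chromosome 15 (the Cyp2d genes), 10 on chromosome 19 (the Cyp2c genes) and 6 on chromosome 17 (5 Cyp4f genes and Cyp39a1).

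**Figure D1:**
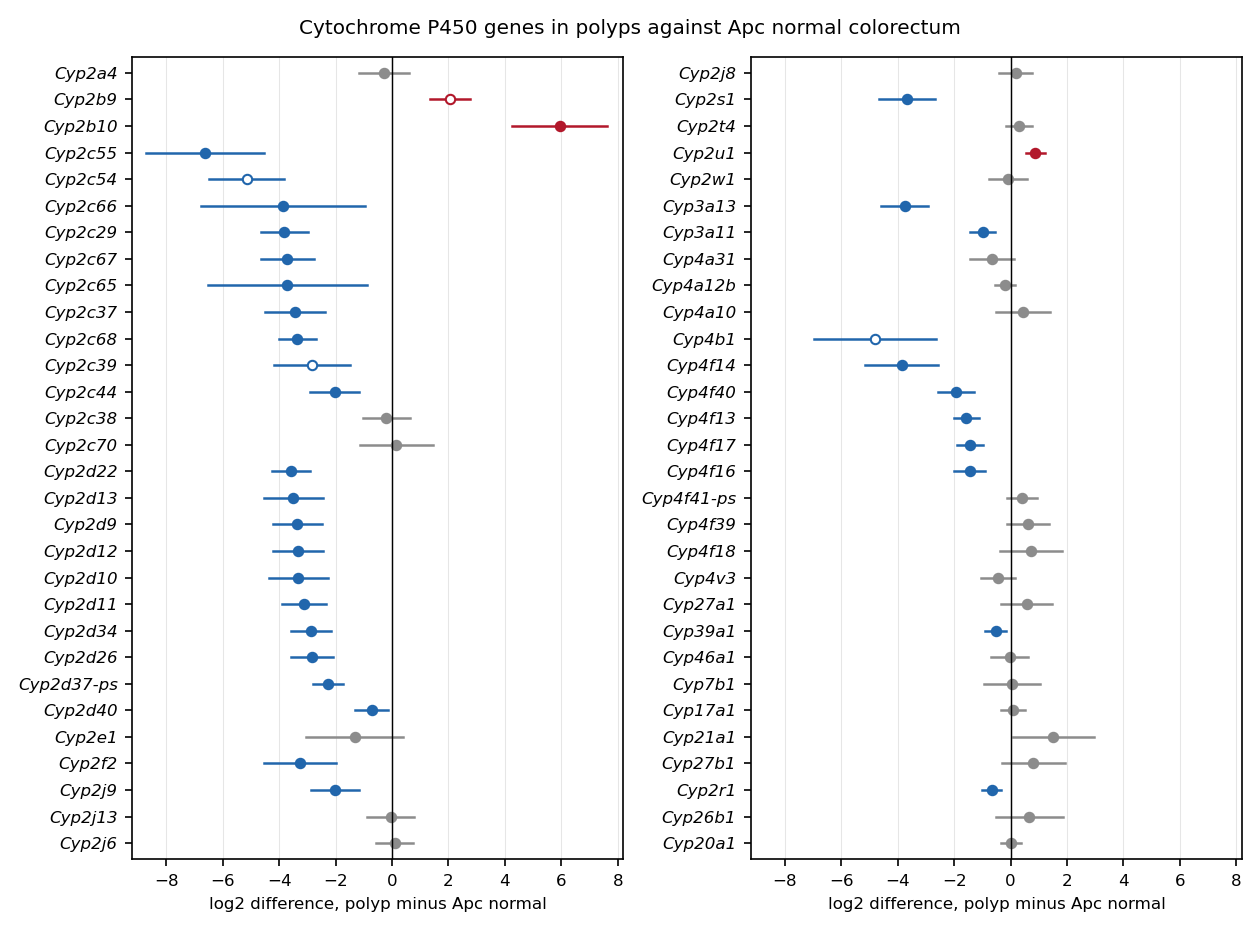
Log2 difference between polyps and Apc normal tissue for the 60 tested P450 genes (points, with 95% confidence intervals from limma; 4 arrays per group), grouped by role and subfamily. Blue genes were called lower, red genes higher and grey genes neither, and open points mark genes with no detected array in the dimmer group. The 10 Cyp2c genes and 10 Cyp2d genes called lower lie to the left of 0, Cyp2c38 and Cyp2c70 lie near it, and Cyp2b10, at 5.94, lies farthest to the right.

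Absorptive colonocyte markers fell alongside. Of 10 genes on that list (such as Slc26a3, Aqp8 and Car4) 9 were called lower, and the mean level of the list lay between 5.27 and 6.33 on the Apc normal arrays and between 2.36 and 3.35 on polyp arrays. All 6 goblet cell, 6 smooth muscle and 6 enteroendocrine markers were also lower, while all 4 neutrophil and all 4 Paneth cell markers were higher. All 5 enteric neuron and glia markers and 3 of 4 tested small intestine enterocyte markers were lower too. The tuft cell, fibroblast, adipocyte, macrophage, endothelium and B and plasma cell lists had at most 1 call in each direction. The smooth muscle list ran from 4.60 to 5.07 on Apc normal arrays and from 0.29 to 1.85 on polyp arrays. Of 5 hepatocyte markers tested, 1 was called higher and 2 lower, and the list ran from −1.42 to 0.13 on Apc normal arrays against −1.16 to −0.14 on polyp arrays. The part of these cell types in the P450 differences was not tested.

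The Cyp2c genes encode enzymes that epoxidise or hydroxylate arachidonic acid and also act on drugs. Of 12 tested, 10 were called lower in polyps, with differences between −6.63 and −2.04, and Cyp2c38 and Cyp2c70 were not called. Cyp2c55, which is abundant in mouse colon and makes a hydroxylated arachidonic acid, read 3.91, 3.31, 6.86 and 3.70 in Apc normal tissue of mice 103, 106, 107 and 110. In the polyps of the same mice it read −2.20, −4.00, −0.94 and −1.61. Every polyp array lay below every normal array, and the difference of means was −6.63 ± 0.91 (SE), a 99.1-fold lower signal. Without the normal array of mouse 107 this difference was −5.83, and without the polyp array of mouse 106 it was −6.03. With another background correction followed by quantile normalization, together called normexp here, it was −6.02. Cyp2c54 was not well above background in any of the 4 polyps, and against the dimmest signal still above background its own was at least 13.7-fold lower there. Its fitted difference of −5.15 became −2.10 with normexp, a smaller fold than that bound, and −2.00 with the mean over probes. These genes had already been seen to fall in earlier results of these arrays, so their values in this comparison are given without a test. Cyp2c54 rests on the brightest of 3 probes, and neither of the other 2 was above background on any array.

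Cyp2c29, an epoxygenase best known from liver, read between 2.33 and 3.04 in Apc normal tissue and between −1.95 and −0.19 in polyps. It fell by 3.81 ± 0.36 (adjusted p = 0.000167). Cyp2c67 fell by 3.71 ± 0.41 (adjusted p = 0.0003) and a second probe for it gave −4.09. Cyp2c68 fell by 3.36 ± 0.29 (adjusted p = 0.000119), with mouse by mouse differences between −3.68 and −3.22. These 3 genes kept the order of their polyp levels, with mouse 103 highest and mouse 106 lowest. Cyp2c44, an endothelial and epithelial epoxygenase, fell by 2.04 ± 0.38 (adjusted p = 0.00308), with its smallest difference, −0.80, in mouse 107. Cyp2c39 was well above background on 3 of 4 Apc normal arrays and on no polyp array, which gives at least a 2.18-fold lower signal. Cyp2c38, at −0.20 (95% confidence interval −1.02 to 0.62), and Cyp2c70, at 0.16 (−1.13 to 1.45), showed no common direction across the mice.

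Cyp2c65 and Cyp2c66, whose genes neighbour Cyp2c55, shared a pattern across the mice. Cyp2c65 read −1.28, −0.78, 4.37 and −0.37 in normal tissue of mice 103, 106, 107 and 110, and −3.29, −4.46, −1.95 and −3.17 in their polyps. Cyp2c66 read −0.95, −0.33, 4.78 and 0.03 in the same normal tissues and −2.92, −4.56, −1.49 and −2.97 in the polyps. The normal array of mouse 107 stood far above the other 3 for both genes, and that mouse also had the highest polyp value. Cyp2c55, Cyp4b1 and Cyp4f14 likewise had their highest normal and highest polyp values in mouse 107, though Cyp4b1 was not above background in polyps. The groups did not overlap. Cyp2c65 fell by 3.70 ± 1.22 (adjusted p = 0.0377) and Cyp2c66 fell by 3.86 ± 1.26 (adjusted p = 0.0366). Both calls were lost when any of the polyp arrays of mice 103, 106 or 110, or the normal array of mouse 110, was left out (adjusted p from 0.0534 to 0.0981). They were also lost with no filter on dim probes (adjusted p = 0.0574 and 0.0559). Without the normal array of mouse 107 the differences were −2.41 and −2.57 (adjusted p = 0.0111 and 0.0177), without that of mouse 103 −4.29 and −4.47, and with normexp −3.09 and −3.13.

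The probes behind this pattern were compared because paralogs of the family are alike in sequence. The first 30 bases of each probe are shown, 5′ to 3′ and wholly in lower case.
Cyp2c55: ttcattcctcgttaaagcagaacacactgg
Cyp2c65: tcattcccatctaaatggatttccccctaa
Cyp2c66: tctctgaccctatcaccagagttctgggat
They lie on the plus strand at chr19:39116674-39116733, chr19:39167981-39168040 and chr19:39261183-39261242 (mm9, positions of the whole 60-base probes). Over all 66 pairs of tested Cyp2c genes the longest stretch shared by the probes was 10 bases, and over the 45 pairs of Cyp2d genes it was 8. The parallel readings of these genes thus came from probes with unlike sequences. Whether a probe also matches another gene's transcript elsewhere was not tested, and the position of probes in exons or untranslated regions is not given here. The tested pair with the most alike probes was Cyp4a10 and Cyp4a31 (44 of 47 compared bases identical), so their values cannot be taken as separate.

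Cyp2c37, a hydroxylase of arachidonic acid, depended on the probe. The brighter probe read −0.81, −0.88, −2.24 and −0.67 in normal tissue of mice 103, 106, 107 and 110 and −3.61, −5.31, −4.99 and −4.43 in their polyps, a fall of 3.43 ± 0.46 (adjusted p = 0.000673). The second probe, which was also above background on all 12 arrays, differed by only −0.43. The first 30 bases of both are shown because their readings disagree.
Cyp2c37, brighter probe: tggccactttctagatgggaatggaaagtt
Cyp2c37, second probe: cacactggacacactgacttttatccagtt
They lie on the plus strand at chr19:40084382-40084441 and chr19:40086467-40086526 (mm9).

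**Figure D2:**
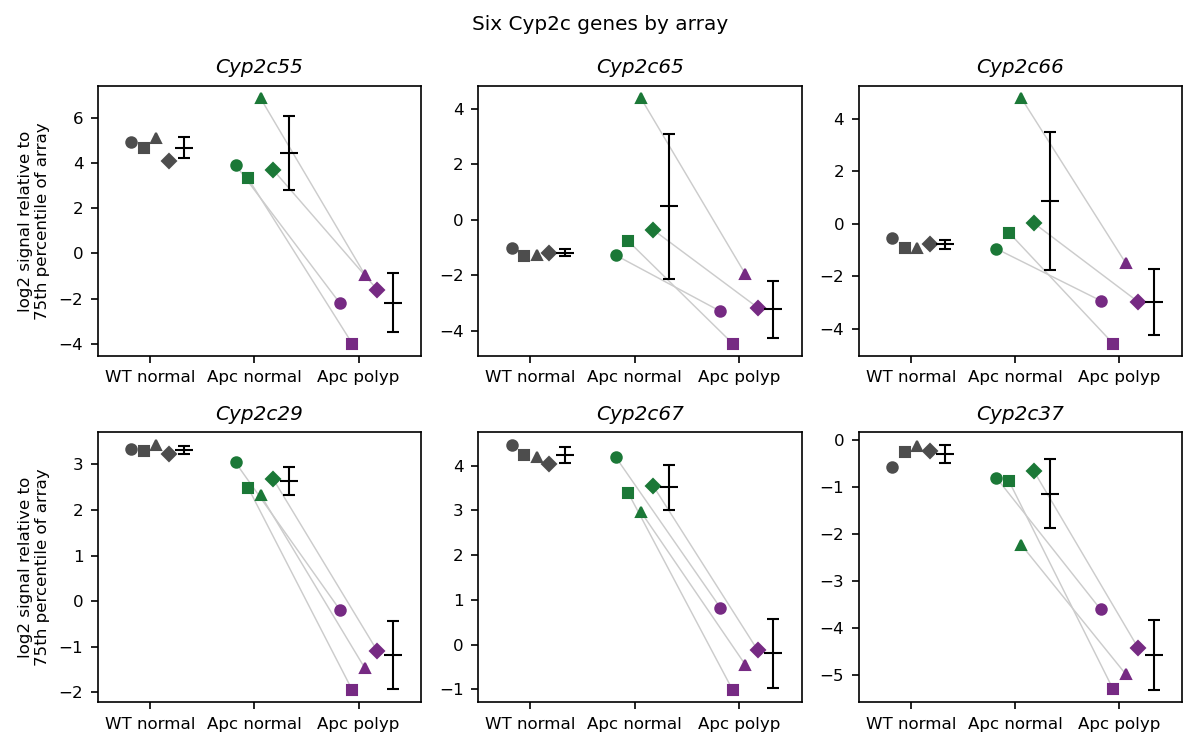
Level (log2 signal relative to the array's 75th percentile) of 6 Cyp2c genes on each of the 12 arrays, with the mean and SD of each group (n = 4) as a bar to the right. Within a group the points run in the order of mouse number and grey lines join the tissues of a mouse; the triangle in the Apc groups is mouse 107, whose normal array is highest for Cyp2c55 (6.86), Cyp2c65 and Cyp2c66 and lowest for Cyp2c29, Cyp2c67 and Cyp2c37.

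The Cyp2d genes, a cluster on chromosome 15, are related to the human drug-metabolising enzyme CYP2D6. All 10 tested were called lower in polyps. Cyp2d22, the member usually matched to CYP2D6, read 0.50, −0.28, −0.62 and 0.04 in normal tissue of mice 103, 106, 107 and 110 and −3.27, −4.24, −3.77 and −3.35 in polyps. It fell by 3.57 ± 0.29 (adjusted p = 0.000106), or by 2.80 with normexp. Cyp2d13 differed by −3.50 ± 0.45 and was above background on 3 of 4 polyp arrays, and with normexp its difference was −2.02. Cyp2d9, Cyp2d10, Cyp2d11, Cyp2d12, Cyp2d26, Cyp2d34 and the pseudogene Cyp2d37-ps fell by between 2.26 and 3.36. Cyp2d34 gave −2.87 and its second probe −3.04. Cyp2d40 was the exception, with a difference of −0.72 ± 0.25 (adjusted p = 0.0473). Its wild-type levels (−4.95 to −3.78) overlapped those in polyps (−4.95 to −4.01), and no difference was called against wild-type tissue (−0.18, adjusted p = 0.63).

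**Figure D3:**
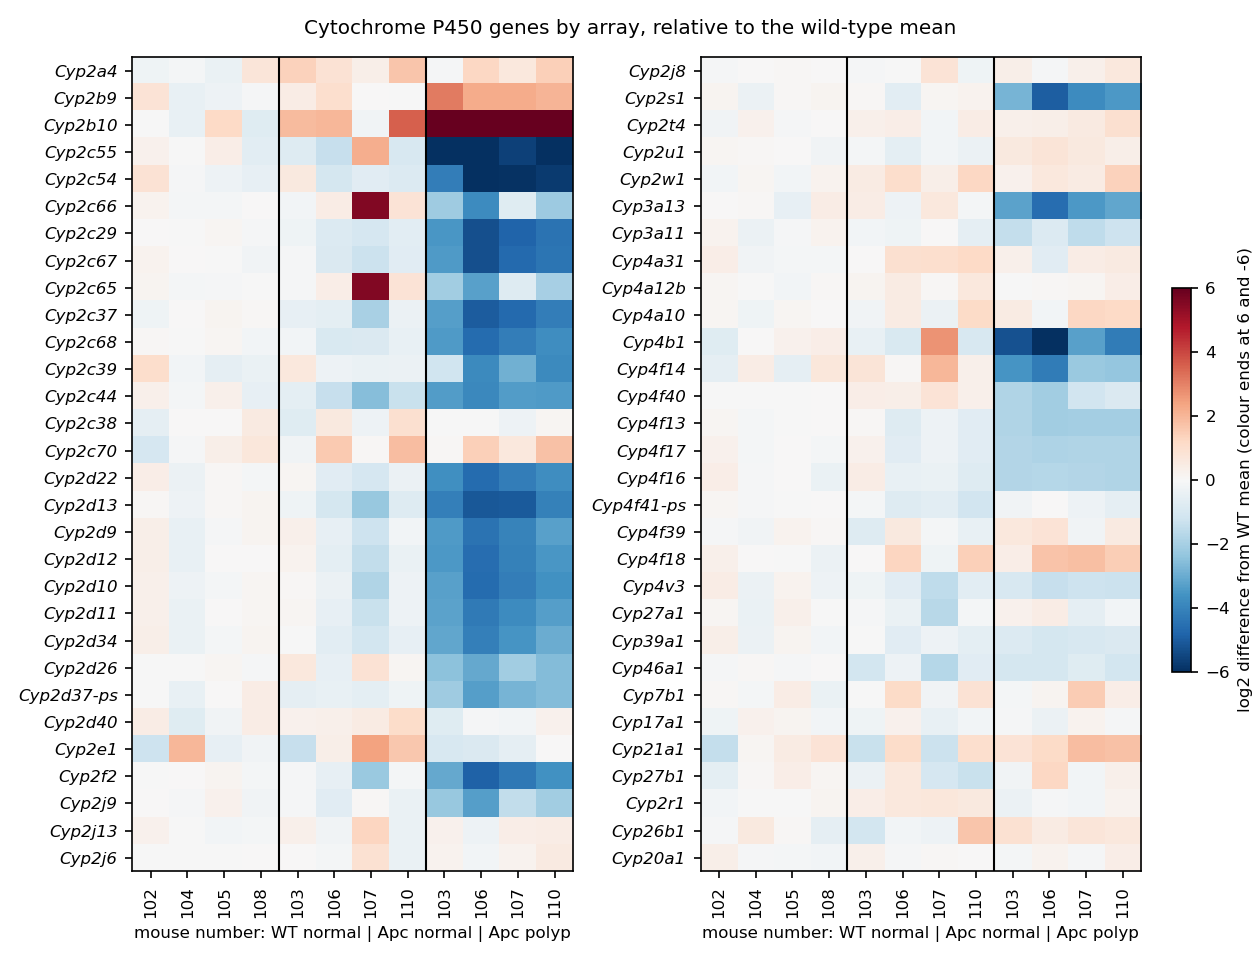
Level of the 60 tested P450 genes on each of the 12 arrays, as the log2 difference from the wild-type mean (red higher, blue lower; colours end at 6 and −6), with arrays ordered by group and mouse number. The Cyp2d block is blue in all 4 polyps apart from Cyp2d40, and in Apc normal tissue the column of mouse 107 stands out, red for Cyp2c65, Cyp2c66 and Cyp4b1 and blue for Cyp2d13 and Cyp2f2.

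Cyp2b10 and Cyp2b9 differed in the other direction. Cyp2b10, the best known target of the xenobiotic receptor CAR in liver, read −5.90, −5.79, −7.97 and −4.19 in normal tissue of mice 103, 106, 107 and 110 and 0.90, −0.13, −0.55 and −0.29 in their polyps. It was above background on 1 of 4 Apc normal arrays and on all polyp arrays, and the difference was 5.94 ± 0.73, a 61.6-fold higher signal that is set partly by readings at background. Without the normal array of mouse 107 the difference was 5.27, without that of mouse 110 it was 6.53, and with normexp it was 3.75. Cyp2b9, a close relative, did not reach background in Apc normal tissue, and polyps exceeded that tissue by at least 1.60-fold. With normexp its difference was 0.55, a smaller fold than that bound. The first 30 bases of these probes are shown because both genes were higher in polyps, and they share at most 4 bases in a row.
Cyp2b10: cacttatcagctctccatgatctgggatct
Cyp2b9: cagacaaattgtcaaaaaacagcaggaact
They lie on the plus strand at chr7:26711522-26711581 and chr7:26983484-26983543 (mm9).

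The remaining genes of family 2 were mixed. Cyp2s1, an enzyme of epithelia outside the liver, read between 3.29 and 4.09 in Apc normal tissue and between −1.04 and 1.11 in polyps and fell by 3.68 ± 0.43 (adjusted p = 0.000379). Cyp2f2, known from the airway for activating naphthalene, fell by 3.25 ± 0.56 (adjusted p = 0.00216), with the smallest difference in mouse 107 (−2.06). Of 4 Cyp2j genes, whose products oxidise arachidonic acid, Cyp2j9 fell by 2.01 ± 0.37 (adjusted p = 0.00302) while Cyp2j6, Cyp2j8 and Cyp2j13 lay between −0.05 and 0.17. Cyp2u1, a hydroxylase of long-chain fatty acids, read between 2.79 and 3.28 in Apc normal tissue and between 3.72 and 4.15 in polyps, and rose by 0.87 ± 0.14 (adjusted p = 0.00188). Its other 2 probes gave 0.32 and 0.26. Cyp2e1, which oxidises ethanol, ranged from −4.23 to −0.44 among the Apc normal arrays and differed by −1.32 ± 0.74 (adjusted p = 0.183), with a call (adjusted p = 0.0144) only when the normal array of mouse 103 was left out. Cyp2w1, known from human colorectal tumours, differed by −0.09 (−0.75 to 0.58).

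Of the Cyp3a genes, which carry much of the drug oxidation in gut and liver, 2 of 8 were tested and both fell. Cyp3a13, the main member of mouse intestine, read 2.79, 2.03, 3.01 and 2.22 in normal tissue of mice 103, 106, 107 and 110 and −0.88, −2.22, −1.11 and −0.76 in their polyps. It fell by 3.75 ± 0.36 (adjusted p = 0.000177), and its second probe gave −3.43. Cyp3a11, the main member of liver, fell by 0.99 ± 0.19 (adjusted p = 0.00359). None of the other 6 reached background on all 4 arrays of a group.

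Family 4 encodes hydroxylases that act on the end of fatty acids and eicosanoids. Of 13 tested genes, 6 fell and 7 were not called. Cyp4b1 read −3.18, −3.64, −0.02 and −3.65 in normal tissue of mice 103, 106, 107 and 110 and did not reach background in polyps, at least an 11.6-fold lower signal. Its fitted difference of −4.80 became −3.94 without the normal array of mouse 107. With normexp it was −2.10, a smaller fold than that bound. Cyp4f14, which inactivates the neutrophil attractant leukotriene B4, read between 2.97 and 4.87 in Apc normal tissue and between −1.31 and 0.66 in polyps and fell by 3.85 ± 0.56 (adjusted p = 0.00101). Cyp4f13, Cyp4f16, Cyp4f17 and Cyp4f40 fell by between 1.45 and 1.94. Of these, Cyp4f16 read between −0.09 and −0.0002 on the 4 polyp arrays. Cyp4f18, which acts on leukotriene B4 in neutrophils, differed by 0.73 ± 0.48 (adjusted p = 0.248). It was the only tested Cyp4f gene on chromosome 8, where Cyp4v3 also lies. None of the 3 tested Cyp4a genes, targets of the fatty acid receptor PPARα in liver, was called.

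**Figure D4:**
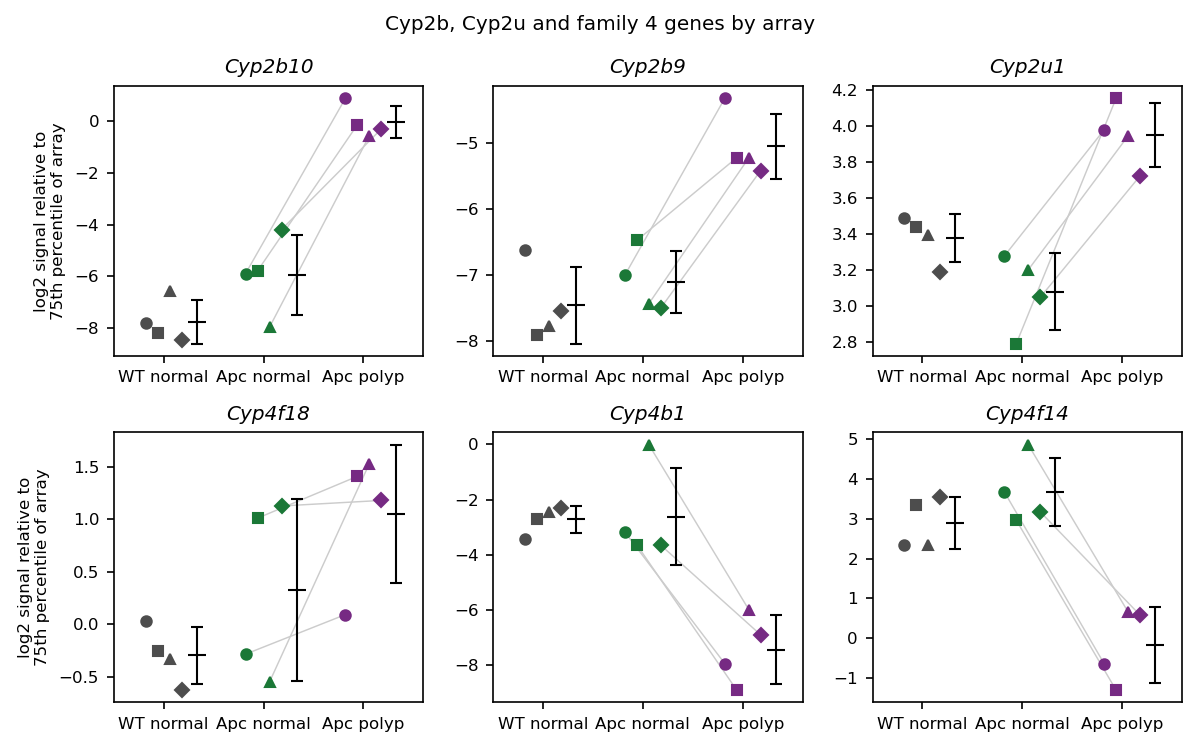
Level (log2 signal relative to the array's 75th percentile) of Cyp2b10, Cyp2b9, Cyp2u1, Cyp4f18, Cyp4b1 and Cyp4f14 on each of the 12 arrays, drawn as for the Cyp2c genes with group means and SD (n = 4). All 4 polyp arrays lie above all 8 normal arrays for Cyp2b10, Cyp2b9 and Cyp2u1 and below them for Cyp4b1 and Cyp4f14, while Cyp4f18 overlaps between the Apc groups.

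The P450 genes of steroid, sterol and vitamin metabolism showed few calls. Of 4 tested sterol genes, Cyp39a1, a hydroxylase of 24-hydroxycholesterol, was lower by a difference of −0.53 ± 0.16 (adjusted p = 0.0283), a call that was lost with median scaling (adjusted p = 0.0914) and when the arrays of mouse 107 or the polyp array of mouse 106 or 110 was left out. Cyp27a1 (0.57 ± 0.39), Cyp7b1 (0.05 ± 0.43) and Cyp46a1 (−0.04 ± 0.28), which hydroxylate cholesterol or its products, were not called. Cyp2r1, which makes 25-hydroxyvitamin D, read 0.69, 0.94, 0.99 and 0.87 in normal tissue of mice 103, 106, 107 and 110 and −0.07, 0.21, 0.15 and 0.50 in their polyps. It fell by 0.68 ± 0.14 (adjusted p = 0.00543), and its second probe gave −1.01. Cyp27b1, which makes the active hormone, differed by 0.81 ± 0.48 and was not called. It was tested only through polyps and was above background on 2 of 4 Apc normal arrays. With normexp its difference was 0.24.

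The steroid 21-hydroxylase gene Cyp21a1 differed by 1.52 ± 0.63 (adjusted p = 0.0813) and the 17-hydroxylase gene Cyp17a1 by 0.08 ± 0.18. Cyp21a1 read −2.48 and −2.42 on the normal arrays of mice 103 and 107, both at slide position 1, and −0.08 and −0.15 in mice 106 and 110. Its second probe, above background on 1 Apc normal array and 2 polyp arrays, differed by 0.52. Cyp11a1, which starts steroid synthesis, was above background on 3 polyp arrays and on no normal array, and polyps exceeded Apc normal tissue by at least 1.60-fold. The aromatase gene Cyp19a1 was above background on 1 Apc normal array alone. Cyp26b1, which breaks down retinoic acid, differed by 0.67 ± 0.52 (adjusted p = 0.325). Without the normal array of mouse 110, its highest normal array at −1.23, the difference was 1.21 (adjusted p = 0.00715). Cyp26a1, of the same function, reached background on 3 polyp arrays and on no normal array, and Cyp1b1, an enzyme of oestrogen and polycyclic hydrocarbons, on 2 polyp arrays and no normal array. The levels of both overlapped between the tissues. Cyp26a1 ran from −6.79 to −5.33 on Apc normal arrays and from −6.10 to −4.97 on polyp arrays. Cyp1b1 ran from −8.01 to −7.16 and from −7.70 to −4.39. The orphan enzyme gene Cyp20a1 differed by 0.01 ± 0.15.

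Genes that work with the P450 enzymes or control them were examined as a list of their own. Of 13 tested regulators, 9 were lower in polyps and 1 was higher. Nr1i3 encodes the receptor CAR and fell by 3.73 ± 0.39 (adjusted p = 0.000248), while the signal of its known liver target Cyp2b10 was higher. Ahrr, the repressor of the dioxin receptor, fell by 2.54 ± 0.27 (adjusted p = 0.00026), and Ahr, the dioxin receptor itself, was the gene called higher. The other genes called lower were those of the vitamin D, bile acid, oxysterol and pregnane receptors (Vdr, Nr1h4, Nr1h3, Nr1i2), Rxra, Arnt and Hnf4a. Of 11 genes for electron donors and haem supply, 6 were lower and 2 higher. The mitochondrial electron carrier gene Fdx1 fell by 0.71 ± 0.10 (adjusted p = 0.000831), and Hmox1, which degrades haem, rose by 2.53 ± 0.45 (adjusted p = 0.00256).

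**Figure D5:**
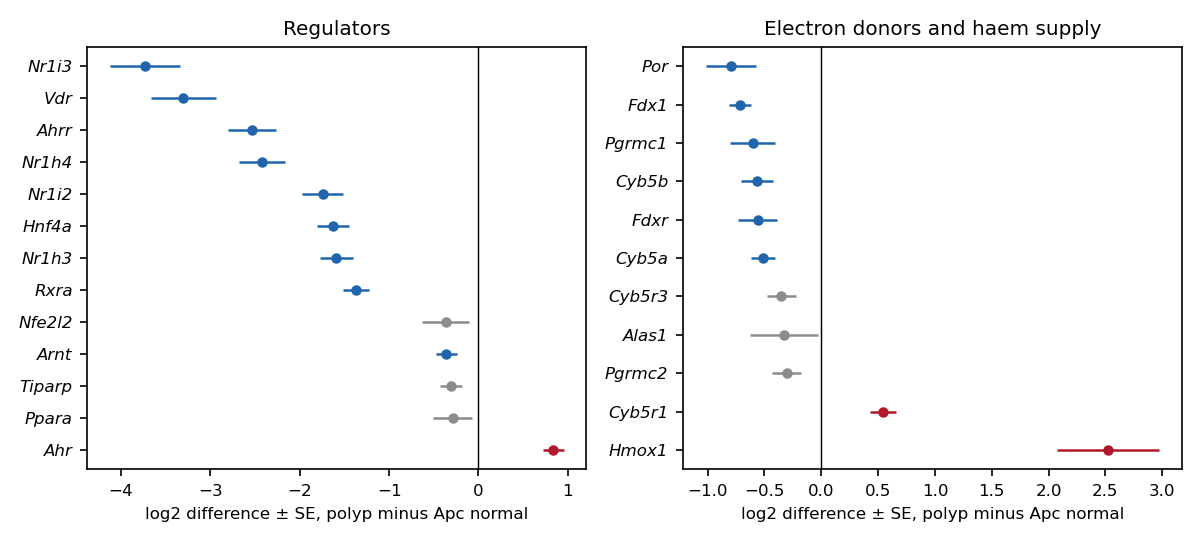
Log2 difference ± SE between polyps and Apc normal tissue (4 arrays per group) for 13 regulators of P450 genes (left) and 11 genes of electron transfer and haem supply (right), with blue for genes called lower, red for higher and grey for neither. Nr1i3 lies farthest to the left at −3.73, and the electron donors lie within a narrower range.

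Further genes of the same pathways were split. Of 5 enzymes that act on P450 products or make eicosanoids with a P450 fold, Ptgis, which makes prostacyclin, fell by 2.48 ± 0.26 (adjusted p = 0.000247), Ephx2, which hydrolyses the epoxides made by Cyp2c enzymes, fell by 2.27 ± 0.37 (adjusted p = 0.0017), and 1 gene was higher. Of 8 genes of retinoic acid synthesis and response, 3 were higher and 2 lower. Stra6, a retinol carrier, rose by 5.46 ± 0.59 (adjusted p = 0.000288) and Aldh1a3, which makes retinoic acid, by 4.43 ± 0.49 (adjusted p = 0.000296). Of 7 steroid partners, 1 was higher and 3 lower, with Nr5a2, a nuclear receptor that switches on steroid enzymes, at −3.39 ± 0.30 (adjusted p = 0.000135) and Hsd11b2, which inactivates glucocorticoids, at −2.93 ± 0.28 (adjusted p = 0.00017).

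Promoter sequence was available for 70 of the 95 genes (RefSeq, GRCm38.p6), and the 250 bases before the start were searched on both strands for 5 short motifs. The HNF4 site CAAAGTCCA, of the type bound by the liver and gut factor Hnf4a, occurred in 8 of 70 P450 promoters and in 0.45% of the 27025 genes of the same table. Among promoters of genes called lower it occurred in 4 of 24. The related DR1 core AGGNCAAAG, which can overlap it by its CAAAG, occurred in 9 of 70 (2.08% of all), the TATA box TATAAA in 27 of 70 (14.33%), the XRE core TNGCGTG, the dioxin receptor motif, in 1 of 70 (4.76%) and the TCF/LEF core CTTTGAT in 2 of 70 (3.72%). The P450 promoters share ancestry, so these are not independent observations. The 4 genes called lower with the HNF4 site are shown over 60 bases, with the site in capitals.
Cyp2c65: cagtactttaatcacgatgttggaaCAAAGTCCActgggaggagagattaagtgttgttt
Cyp2c67: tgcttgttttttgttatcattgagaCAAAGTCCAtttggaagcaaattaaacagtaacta
Cyp2c68: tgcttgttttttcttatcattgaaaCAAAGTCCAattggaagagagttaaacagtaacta
Cyp3a11: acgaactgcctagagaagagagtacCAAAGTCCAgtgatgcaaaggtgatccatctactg
They lie at chr19:39060865-39060924 on the plus strand and at chr19:39649133-39649192, chr19:39741144-39741203 and chr5:145879929-145879988 on the minus strand (GRCm38.p6). The site begins 116, 125, 77 and 109 bases before the start. Cyp2c70, which was not called, has the same motif, as do Cyp3a16, Cyp3a41b and Cyp8b1, which were not tested. A match is a description and shows neither binding nor use.

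In normal tissue of Apc mice against wild-type mice, none of the 60 genes passed the test, against 0.149% called higher and 0.0199% lower over all genes. At an unadjusted p under 0.05 there were 16 P450 genes (3439 of all genes). The groups did not overlap for 3 genes that read higher and 5 that read lower in Apc mice. The share of all genes without overlap is not given here, so these numbers describe single genes and not the family. Cyp2c44 read −1.26, −1.69, −1.25 and −2.05 in wild-type mice 102, 104, 105 and 108 and −2.16, −2.94, −4.11 and −2.90 in Apc mice 103, 106, 107 and 110, a difference of −1.46 (95% confidence interval −2.37 to −0.56; adjusted p = 0.148). Cyp2c29 differed by −0.68 (−1.05 to −0.32; adjusted p = 0.113) and Cyp2r1 by 0.58 (0.32 to 0.84; adjusted p = 0.0832). Cyp2c37, Cyp46a1 and Cyp4f41-ps also read lower without overlap, and Cyp2w1 and Cyp4f40 higher. The second Cyp2c37 probe went the other way, with a difference of 0.56. Cyp2w1 was tested only through Apc normal tissue (above background on 2 of 4 wild-type arrays), so the filter favoured its higher reading there. With slide as a random block, 1 P450 gene was called higher and 2 lower, among them Cyp2r1 (adjusted p = 0.028) and Cyp46a1 (adjusted p = 0.0403), and without the Apc normal array of mouse 103, 2 were called higher, 1 of them Cyp2r1 (adjusted p = 0.0435), and 3 lower. Since slide and genotype coincide, these differences cannot be told apart from differences between slides.

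For 5 other genes with a large difference in polyps, the interval of the difference between the normal tissues included 0. It ran from −1.93 to 1.46 for Cyp2c55, from −0.94 to 4.29 for Cyp2c65, from −1.73 to 1.92 for Cyp4b1, from −0.54 to 0.43 for Cyp2s1 and from −0.47 to 0.79 for Cyp3a13. Cyp2b10 differed by 1.81 (0.04 to 3.58; adjusted p = 0.282) but was above background on 1 of these 8 arrays. Of the partner lists no gene was called in this comparison, with the smallest p in each list belonging to Fdxr, Ephx1, Hnf4a, Rarb and Hsd3b2 (adjusted p from 0.186 to 0.322).

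Polyps against wild-type normal tissue gave 33 P450 genes lower and 8 higher of 60, against 32.8% and 27.4% over all genes. This comparison shares the polyp arrays with the one above, so it is no separate evidence, and the values are given side by side. Cyp2c55 differed by −6.87 ± 0.60, Cyp2c29 by −4.50 ± 0.33, Cyp2d13 by −4.57 ± 0.27 and Cyp2c44 by −3.50 ± 0.21. Cyp2c65 and Cyp2c66, which did not have a high wild-type array, differed by −2.03 ± 0.45 and −2.20 ± 0.55 (adjusted p = 0.00499 and 0.00875). Cyp2b10 did not reach background in wild-type tissue, and polyps exceeded it by at least 59.5-fold. With normexp the difference was 4.17, a smaller fold than that bound, and that of Cyp2d13 was −2.90. Cyp4f18 was higher by 1.35 ± 0.31 (adjusted p = 0.00622), Cyp21a1 by 1.39 ± 0.49 (adjusted p = 0.0378) and Cyp26b1 by 0.69 ± 0.23 (adjusted p = 0.0292). Cyp21a1 read −2.61 on the wild-type array of mouse 102, at slide position 1, and −1.02 to −0.34 on the other wild-type arrays. No polyp array was at position 1, and the part of position was not tested. The Cyp26b1 call was lost under 10 of the alternatives tried. Cyp2t4, Cyp2w1, Cyp2b9 and Cyp2u1 completed those called higher, of which Cyp2b10 and Cyp2b9 had been tested only through polyps and Cyp2w1 only through Apc normal tissue. Cyp4v3 (−1.22 ± 0.20) and Cyp46a1 (−0.99 ± 0.10) were lower against wild-type tissue but were not called against Apc normal tissue, while Cyp2d40 and Cyp2r1 showed the opposite. With the mean over probes Cyp2r1 was lower against wild-type tissue too (−0.40; adjusted p = 0.00469). Neither of these differences between comparisons was tested.

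The normal array of mouse 107 differed from those of the other Apc mice in several members at once. It lay more than 1 log2 unit above all 3 other Apc normal arrays for 5 tested genes (Cyp2c55, Cyp2c65, Cyp2c66, Cyp4b1 and Cyp4f14) and more than 1 unit below them for 7 (Cyp27a1, Cyp2b10, Cyp2c37, Cyp2c44, Cyp2d10, Cyp2d13 and Cyp2f2). The other 3 Apc normal arrays did so for 2 genes each or 1 gene. On the array of mouse 107 the small intestine enterocyte markers (4 tested) averaged 1.33 against 0.38 to 0.62 on the other Apc normal arrays. The hepatocyte markers averaged −1.42 against −0.34 to 0.13, and the absorptive colonocyte markers 6.33 against 5.27 to 5.98. Lists of other cell types stood apart too. The adipocyte markers averaged 0.73 against −3.77 to −0.40 and the tuft cell markers −2.08 against −3.43 to −2.86. The B and plasma cell markers were lowest on that array, at −1.54 against −0.53 to 2.34. Their part in the P450 values of this array was not tested. Without both arrays of mouse 107, a choice made after seeing the data, 32 P450 genes were called lower in polyps and 3 higher.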

How the data were processed

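Each of the 12 samples was hybridised to a one-colour Agilent 4x44K mouse array, and the deposited scanner files hold the spot intensity made by the authors with Agilent Feature Extraction 10.7.3.1 (background-subtracted processed signal, per the file headers, with probe positions on mm9). Spots flagged as outliers were left out (1403). Log2 intensities were averaged per probe and each array's 75th percentile was subtracted. A gene was represented by its brightest probe and tested where the scanner software called that probe well above background throughout some group (4 of 4 arrays). The deposited value table, used as an alternative, is linear: at least 99.8% of an array's probes were within 1% of 1 constant multiple of the scanner signal. Its column medians were 0.9999 to 1.0. The alternative called normexp joined normexp background correction with an offset of 50 to quantile normalization. The part of each step in its smaller differences was not tested.

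Each comparison was fitted on its own 8 arrays with limma 3.58.1 (R 4.3.3) over all 20082 genes, with Benjamini-Hochberg adjustment. The fit was tested on simulated data. Where no array of a group was above background, a fold is a lower bound, set against the dimmest probe still above background on each array (levels −6.60 to −5.17). Labels do not say that same-numbered tissues are from 1 animal, and statements by mouse rest on the shared number. Deviations from the group means over all tested genes were correlated between same-numbered normal and polyp arrays (r = 0.455, 0.170, 0.143 and 0.282 for mice 103, 106, 107 and 110). Between arrays of different numbers r ran from −0.329 to 0.193. The highest of these, normal tissue of mouse 106 with polyps of mouse 110, exceeded the values of mice 106 and 107. Mouse number was also tried as a block. Nothing says that mice of a group came from separate litters, and p-values measure the spread between these samples.

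The members and gene lists were chosen with earlier results of these data known. Named genes were those called with a change of at least 2-fold and no overlap, at most 12 in each direction, together with 19 members of well-known role whatever their values, and the 2 genes of smallest p in each partner list. Genes outside this rule were named after their values were seen, to account for the family. Probe positions are mm9; promoters are GRCm38.p6 from RefSeq and no position was converted.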

Additional observations from a re-analysis of the deposited data

Results flagged for a closer look

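In 78 groups of 4 arrays examined for the named members, 6 held an array whose gap to its nearest neighbour was a larger share of the group's range than Dixon's 95% critical value for 4 samples, and chance gives about 1 in 20. Of these, 5 were the Apc normal array of mouse 107. Cyp2c55 read 6.86 there and 3.91 on the next array. Cyp2c65 read 4.37 against −0.37, Cyp2c66 4.78 against 0.03 and Cyp4b1 −0.016 against −3.18. Cyp2c37 read −2.24 there against −0.88. The other was Cyp20a1 on the wild-type array of mouse 102, at −1.60 against −2.06.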

How the results depend on the processing

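The count of P450 genes called lower in polyps against Apc normal tissue stayed within 1.5 times of 33 under each alternative apart from slide 3 alone, where it was 15 and 1 was higher; leaving out 1 array gave 29 to 35 lower and 3 to 5 higher (5 when the normal tissue of mouse 106 or of mouse 110 was dropped). With mouse number as a replicate block, 33 were lower and 3 higher, and with that block no named call changed. A stricter filter, which drops genes dim in normal tissue, left 1 higher. For Apc normal against wild-type tissue, slide as a random block gave 1 higher and 2 lower (consensus correlation −0.08) and leaving out 1 array 0 to 2 and 0 to 3. For polyps against wild-type tissue, the 8 higher became 5 with normexp, 5 with the stricter filter and 4 with a 2-fold minimum, and 5 to 10 when 1 array was left out (5 without wild-type mouse 102 or 105). Those lower numbered 33 to 34 when 1 array was left out and 29 with the stricter filter. They numbered 31 with a 2-fold minimum, with all 12 arrays in 1 fit and with slide as a random block. Over 65 results for named genes and 1337 alternatives, 1247 kept their direction and side of the threshold, 40 lost the call, 6 gained it and 44 changed sign. The dimmest genes limit the folds, since Cyp2c54, Cyp2b9, Cyp2c39 and Cyp4b1 have a bound only. The changes of sign belong to genes that were not called, and the cause was not tested. In polyps against Apc normal tissue, Cyp20a1 stood at −0.027 with quantile normalization, −0.015 with normexp and −0.083 on slide 2 alone, Cyp46a1 at 0.040 with normexp and 0.28 on slide 3 alone, Cyp7b1 at −0.53 on slide 2 alone and −0.51 without mouse 107 (a choice made after seeing the data), and Cyp26b1 at −0.0071 on slide 3 alone. In Apc normal against wild-type tissue, Cyp26b1 stood at −0.024 with median scaling, −0.0097 with normexp and −0.025 with the deposited value table, Cyp20a1 at −0.054 with the mean over probes, and Cyp2s1 and Cyp4b1 at 0.022 and −0.23 with array weights. In polyps against wild-type tissue, Cyp27a1 stood at −0.029 with median scaling, −0.040 with quantile normalization, −0.030 with normexp and −0.028 with the deposited value table. Leaving out 1 array in turn, polyps against Apc normal tissue gave −0.089 to 0.085 for Cyp20a1, −0.30 to 0.18 for Cyp46a1 and −0.29 to 0.28 for Cyp7b1. The same for Apc normal against wild-type tissue gave −0.52 to 0.39 for Cyp26b1, −1.04 to 0.14 for Cyp2c55, −0.18 to 0.13 for Cyp2s1, −0.010 to 0.32 for Cyp3a13 and −0.78 to 0.44 for Cyp4b1. For polyps against wild-type tissue it gave −0.001 to 0.22 for Cyp20a1, −0.15 to 0.19 for Cyp27a1, −0.028 to 0.46 for Cyp27b1 and −0.99 to 0.083 for Cyp2e1.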
